A study of Mus musculus with 12 samples.

Results

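The comparison described here set ribosome footprints of thymocytes lacking the microRNA pair miR-181a/b-1 (KO) against those of wild-type thymocytes (WT). Its members were the gene rows with a mean count of at least 10 over the 6 footprint libraries, which left 13252 of the 55335 gene rows in the deposited table. Those rows held 99.8% of all footprint reads assigned to genes. At the edge of the rule, Kitl and Slamf9 entered with a mean count of 10, and Cabcoco1 and Ptprb stayed out with a mean count of 9.83. A further 16614 rows had reads but a lower mean, and 25469 rows had none.

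Thymocytes came from 6-week-old mice, kept free of specific pathogens, of which 3 were WT and 3 carried the knockout. Thymus tissue was passed through a 70 µm strainer, and the cells went at once into phosphate-buffered saline with 0.1 mg/ml cycloheximide, which halts elongating ribosomes on the mRNA. Footprints are the short mRNA pieces that a ribosome protects from nuclease, so their number per gene reflects both mRNA amount and ribosome load. RNA-seq of both genotypes, in 3 libraries each, is set beside the footprint values where it helps to read them. The labels give no strain, sex, Cre or allele, and the knockout was not restricted to a cell type by anything they state.

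Developing T cells rearrange their receptor genes in the thymus, pass a stage with both CD4 and CD8 on the surface, and survive only when the receptor binds self-peptide with moderate strength. The miR-181 family is abundant at that double-positive stage, where it is known for dampening phosphatases that restrain signalling by the T cell receptor (TCR). MicroRNAs pair through their seed with target mRNAs and lower their stability and translation.

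The mature sequences are shown because every family member shares the seed that selects targets, while only some of the genes were deleted. In each line the capitals mark bases 2 to 8, counted from the 5′ end, and the sequences are those of RefSeq on GRCm38.p6. The first 2 come from the deleted pair, although the same mature strands are also made from Mir181a-2 and Mir181b-2, and the other two come from Mir181c and Mir181d.
miR-181a-5p: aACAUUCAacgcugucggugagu
miR-181b-5p: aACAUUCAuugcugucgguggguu
miR-181c-5p: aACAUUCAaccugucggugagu
miR-181d-5p: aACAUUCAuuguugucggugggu
The seed ACAUUCA was identical in these 4 names and occurred in no other of the 1679 mature names in the table. The hairpin of Mir181a-1 lies at chr1:137966455-137966541 on the plus strand of GRCm38.p6 and is shown because footprint libraries held reads on it; its capitals mark the 5p strand.
Mir181a-1 hairpin: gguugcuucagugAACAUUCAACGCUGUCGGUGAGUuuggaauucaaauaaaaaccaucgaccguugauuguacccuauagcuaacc
The hairpin of Mir181b-1 follows on the same strand at chr1:137966639-137966718.

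Footprint depth ran from 4069968 reads in genes (KO 3) to 17859770 (WT 2), and 72.3% to 73.1% of reads in each library fell in genes. Same-numbered WT and KO libraries deviated from their genotype means in opposite directions, with a correlation over 7151 well-covered genes of -0.99 for every number. Differently numbered libraries correlated at 0.38 to 0.63. A positive sign there follows on balance from the mirroring, because the 3 deviations within a genotype cancel. The deposited counts carry the word adjusted in their name, and its part in this mirroring was not tested. Libraries that mirror each other are not independent in the way the tests assume, so every FDR given here, with or without a block for the replicate number, may be off. In 38.2% of all genes the 3 KO libraries lay entirely above or entirely below the 3 WT libraries, so separation of the groups is common in this table and is read here only beside that share. Between libraries of the same genotype the counts differed by 5.01 to 17.9 times the sampling variance, so none was a copy of another.

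With the replicate number as a block, edgeR's quasi-likelihood test called 410 of 13252 genes at a false discovery rate (FDR) of 0.05, which is 3.09%. Of these, 261 were higher in KO (1.97% of genes tested) and 149 were lower (1.12%). Without the block 2317 genes were called, including 408 of the 410. Called rises were mostly modest, with a median of 1.58-fold and 57 beyond 2-fold, and called falls had a median of 1.76-fold, with 56 beyond 2-fold. The median log2 fold change over all genes tested was -0.0049. The gene lists below were chosen with earlier results of these data known, so their shares called are descriptions and not tests.

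The number of calls depended on which libraries were in the fit. Leaving out both libraries numbered 1 gave 147 calls, leaving out those numbered 2 gave 135, and leaving out those numbered 3, which include the shallowest library, gave 775. Of the 410 calls, 91 were made in each of these 3 fits. Genes among them include Mir181a-1, Ctse, Hspa8, Gnb4, Ltb, Stat4, Tox, Dusp6, Dusp10, Ifngr1, Zfp36l1, Ddit4, Itgae, Kremen1 and Cacna1e.

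RNA-seq, by the same test, called 104 of 13369 genes (0.778%). Among footprint rises that could be tested in RNA-seq, 245 of 252 had a positive RNA log2 fold change and 39 were called higher there. Among falls, 132 of 140 had a negative RNA log2 fold change and 42 were called lower. The median RNA log2 fold change was 0.47 for the rises and -0.76 for the falls, beside 0.66 and -0.82 in footprints. Whether a gene's footprint change differed from its RNA change was not tested here.

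**Figure D1:**
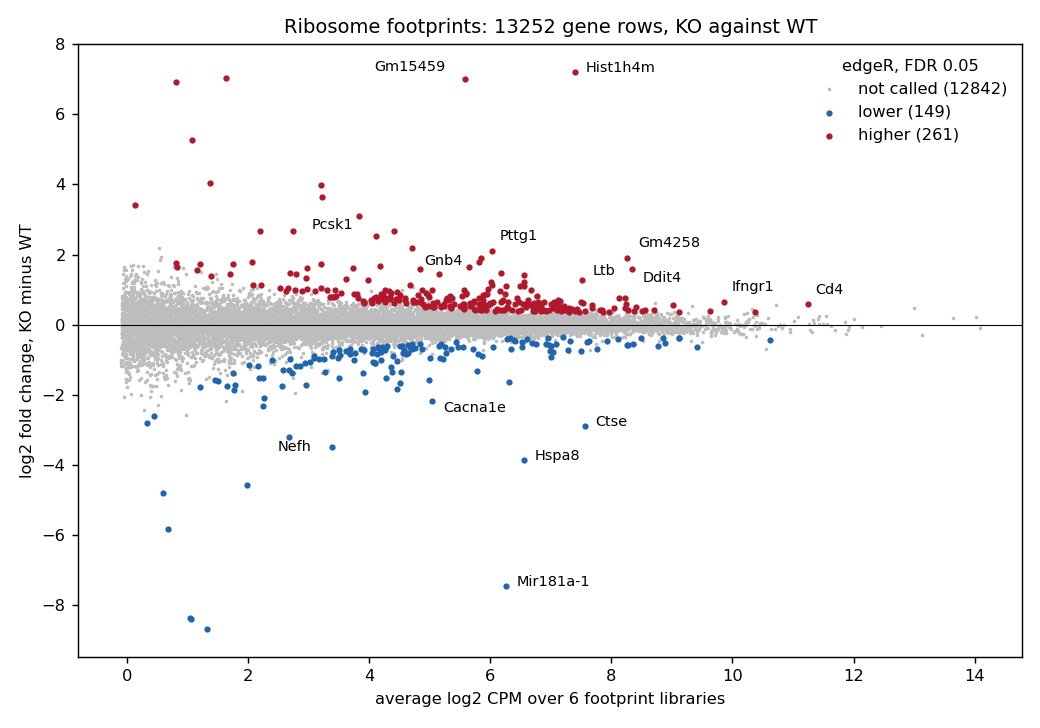
Log2 fold change (KO minus WT, vertical) against average log2 CPM (horizontal) for the 13252 gene rows; each point is a gene, red where called higher and blue where called lower at an edgeR FDR of 0.05. The 261 rises lie mostly below a 2-fold change, while Mir181a-1, Hspa8 and Ctse stand far below zero at middle to high levels and Hist1h4m and Gm15459 far above it.

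The deleted microRNA gene was checked first. Values are counts per unit of sequencing depth (CPM, the usual scale on which a library's gene reads share a common total), scaled by the trimmed mean of M-values. Mir181a-1 stood at 166, 133 and 145 CPM in WT 1 to 3 and at 0.462, 1.05 and 0.983 CPM in KO 1 to 3. Every KO library thus lay far below every WT library, and the fitted log2 difference was -7.45 with an SE of 0.20 (FDR 1.14e-08 in edgeR). Mir181b-1 was listed at 0 reads in all 6 libraries and could not be checked. The other family rows were low: Mir181a-2 stood at 4.26 CPM in WT and 4.41 CPM in KO, Mir181c at 3.57 and 3.10 CPM, and Mir181b-2 at 1.11 and 1.06 CPM. For Mir181d the WT level was 2.19 ± 0.287 CPM and the KO level 0.856 ± 0.343 CPM (means ± SD over 3 libraries, as in all such pairs here), a log2 fold change of -1.48 with an edgeR FDR of 0.115. None of these 4 rows was called. Reads with several alignments were set aside, so the Mir181a and Mir181b rows may miss mature strands that are the same from both genes. These rows therefore do not measure the mature microRNA that remained. In RNA-seq, unlike in footprints, Mir181a-1 was not called (log2 fold change 0.29, FDR 0.921). It held 25, 25 and 7 reads in WT 1 to 3 and 16, 10 and 41 reads in KO 1 to 3. RNA-seq thus did not show the loss seen in footprints, and the origin of its reads in KO was not tested.

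Phosphatases and other published miR-181 targets were examined next. Of 8 targets named in the literature, 3 rose in KO and none fell (37.5% called, beside 3.09% of all genes), and the list's median log2 fold change was 0.07. Dusp6, a phosphatase that inactivates ERK, stood at 67.6, 65.5 and 60.8 CPM in WT and at 105, 110 and 117 CPM in KO. All KO values lay above all WT values, and the groups separated in either direction in 38.2% of all genes. The rise was 1.71-fold (log2 0.77 ± 0.09, edgeR FDR 0.00161). Ptpn22, a tyrosine phosphatase that acts on the kinase Lck, was measured at 135, 137 and 138 CPM in WT and 184, 183 and 180 CPM in KO, a 1.34-fold rise (FDR 0.0251). Cd69, a surface protein induced by TCR signalling, stood at 44.1, 49.1 and 48.9 CPM in WT and 76.2, 69.4 and 68.6 CPM in KO, a 1.51-fold rise (FDR 0.0112).

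The other 5 targets did not pass the test. Ptpn11, the phosphatase SHP-2, averaged 91.3 ± 8.38 CPM in WT against 87.2 ± 8.72 CPM in KO, and Bcl2, an inhibitor of apoptosis, averaged 38.4 ± 6.60 and 36.7 ± 6.99 CPM. The genotypes overlapped for these genes, as they did for Dusp5 (20.7 and 23.4 CPM) and Nrarp, an inhibitor of Notch signalling (1.65 and 1.4 CPM). S1pr1, the receptor that guides egress from the thymus, averaged 26.6 CPM in WT against 23.4 CPM in KO, with a log2 fold change of -0.18 and an FDR of 0.513. Without the libraries numbered 1 or those numbered 2, the list had 1 call in each fit.

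Beyond the published targets, Dusp10, a phosphatase of the kinases p38 and JNK, rose 1.62-fold, from 112, 105 and 101 CPM to 162, 175 and 178 CPM (FDR 0.00221). It and Dusp6 were the 2 rises among 8 dual-specificity MAP kinase phosphatases tested (25% called, beside 3.09% of all genes), whose median log2 fold change was 0.23. Among 17 tyrosine phosphatases of TCR signalling, Ptpn22 and Ptpra were called (11.8%, beside 3.09% of all genes). Ptpra, a receptor-type phosphatase, rose from 146 ± 4.97 to 191 ± 5.84 CPM (FDR 0.0402). Ptpn6, the phosphatase SHP-1, was at 478 and 471 CPM with overlapping groups. Neither phosphatase call of this list was made without the libraries numbered 1, or without those numbered 2.

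**Figure D2:**
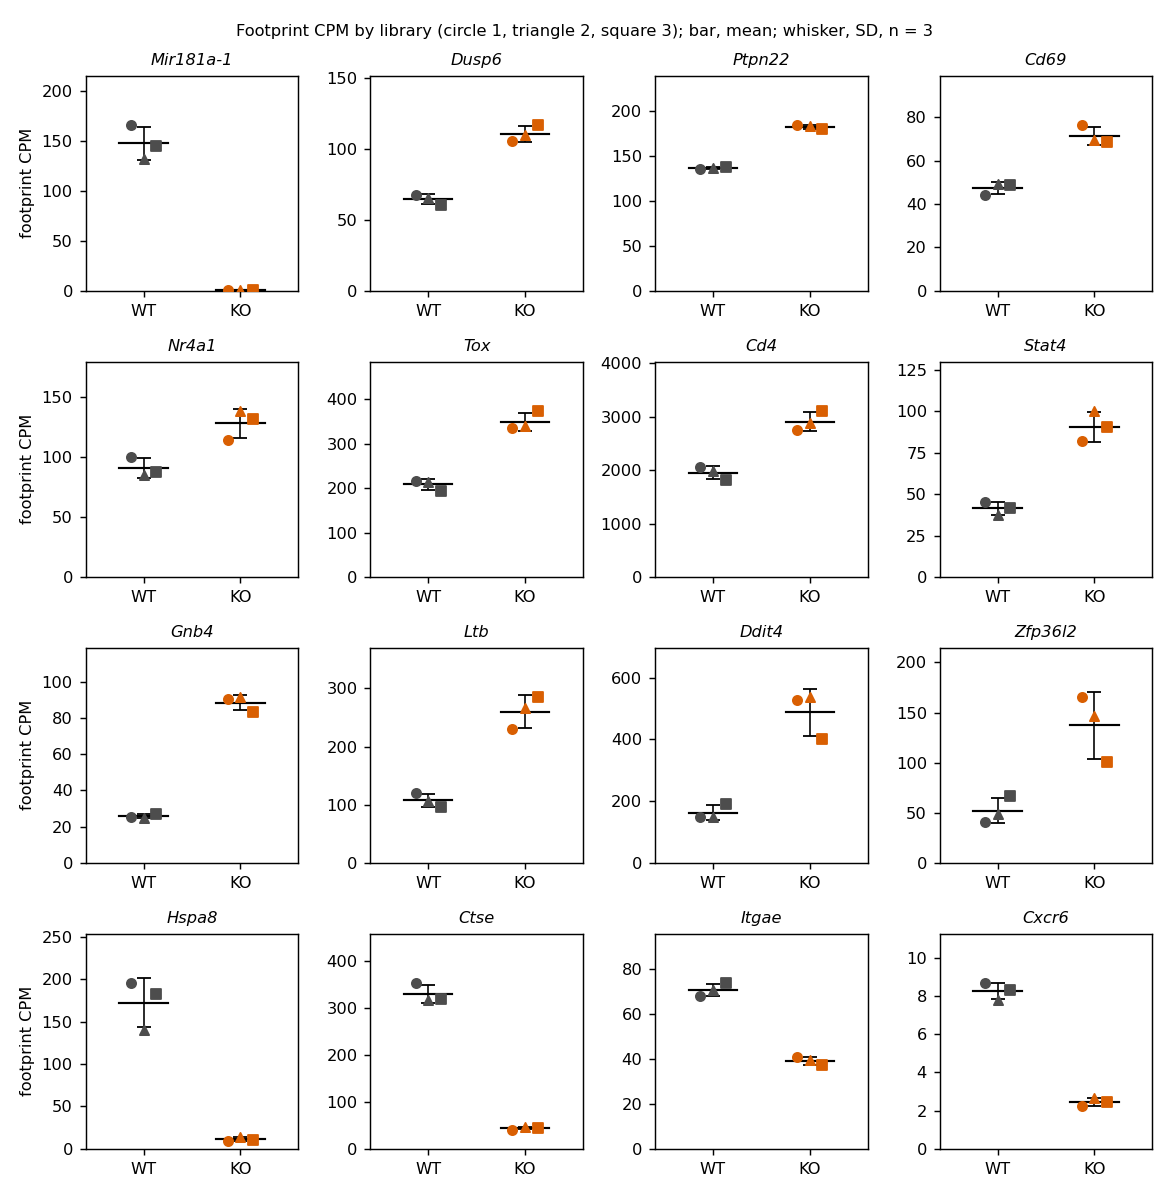
Footprint CPM (vertical, from 0) of 16 genes in the 3 WT and 3 KO libraries; symbols give the library number, bars the mean and whiskers the SD (n = 3). In every panel the KO libraries lie all above or all below the WT libraries, as they did in 38.2% of all genes.

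Several genes induced by TCR signalling were called higher in KO. Of 32 tested, 6 rose and none fell (18.8% called, beside 3.09% of all genes), 28 had a log2 fold change above 0, and the median was 0.29. Tox, a nuclear factor needed for the CD4 lineage, stood at 217, 215 and 193 CPM in WT and 335, 341 and 373 CPM in KO, a 1.68-fold rise (edgeR FDR 0.00186). Nr4a3, an orphan nuclear receptor induced early after TCR engagement, stood at 24, 18.6 and 22.8 CPM in WT and 32.5, 42.0 and 34.4 CPM in KO (FDR 0.0316). Its relative Nr4a1, or Nur77, stood at 100, 84.5 and 87.5 CPM in WT and 114, 138 and 132 CPM in KO (FDR 0.0417). The lowest KO library was above the highest WT library for each of these genes, by a small margin for Nr4a1. Such separation, in either direction, was seen in 38.2% of all genes.

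Egr1, an immediate early transcription factor downstream of ERK, rose from 103 ± 15.0 to 156 ± 22.5 CPM (FDR 0.0456), and Il2ra, the alpha chain of the IL-2 receptor, rose from 92.7 ± 1.44 to 121 ± 2.25 CPM (FDR 0.0417). Cd69 is the remaining call of the list. Egr3 had the highest log2 fold change of the list, 1.00 ± 0.26, but an FDR of 0.074. Cd5, whose surface level follows TCR signal strength, averaged 448 ± 31.1 CPM in WT against 558 ± 38.5 CPM in KO with an FDR of 0.128. Jun and Irf8 lay lower in KO, at log2 fold changes of -0.70 (FDR 0.0757) and -0.57 (FDR 0.0869).

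In RNA-seq the same list had a median log2 fold change of 0.04 over 31 genes, 17 of them above 0. Nr4a1 was at 0.01 there and Egr1 at 0.25, while Tox was at 0.67 and Il2ra at 0.84, and of these 4 genes Il2ra was called in RNA-seq (FDR 0.0188). The count of 6 footprint calls became 3 without the libraries numbered 1, 1 without those numbered 2, 10 without those numbered 3, and 19 without the block. Granulocyte markers also stood higher in KO, with a summed level of 229 to 347 CPM in WT and 376 to 599 CPM in KO, and their part in this list was not tested.

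**Figure D3:**
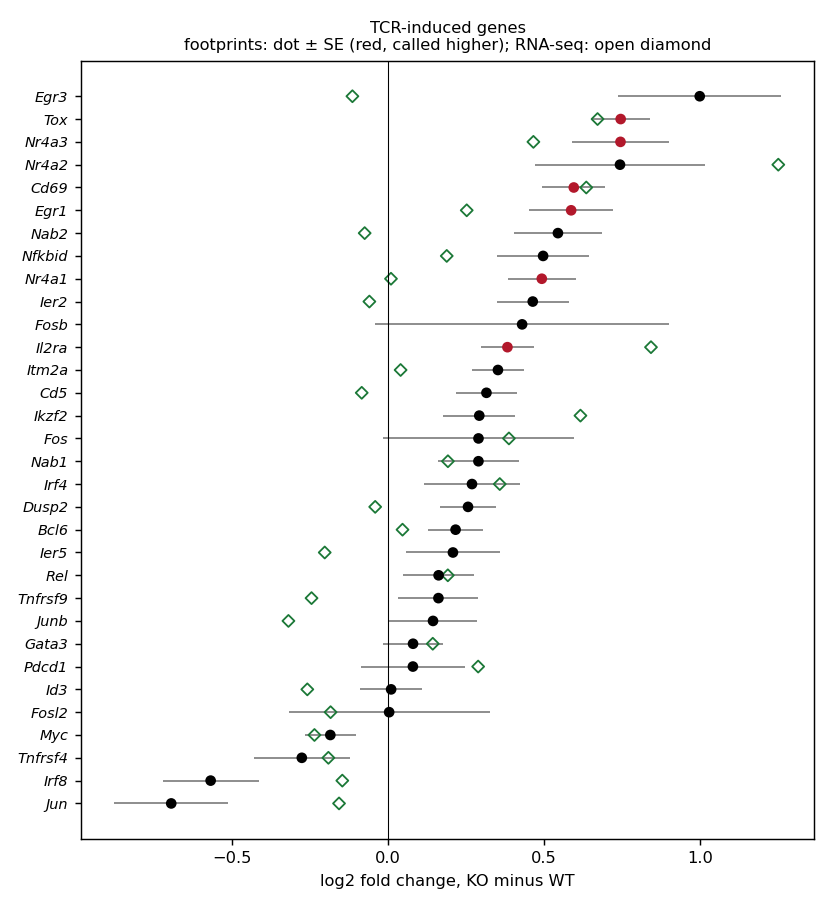
Log2 fold change (KO minus WT, horizontal) of the 32 tested TCR-induced genes, ordered by their footprint value; dots with whiskers are footprints ± SE, red where called higher, and open diamonds are RNA-seq. Of 32 footprint values 28 lie above 0, and Egr3, Tox, Nr4a3 and Nr4a2 lead.

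The receptor and its nearest kinases had 1 call. Of 13 genes of the CD3 complex, pre-TCR and coreceptors, Cd4 alone was called (7.69%, beside 3.09% of all genes). It stood at 2056, 1989 and 1810 CPM in WT and 2746, 2873 and 3098 CPM in KO, a 1.49-fold rise (edgeR FDR 0.0111), while its RNA log2 fold change was 0.19 (FDR 0.727). The coreceptor Cd8a averaged 2004 ± 99.6 CPM in WT against 2142 ± 91.5 CPM in KO, with overlapping groups. Cd4 was not called without the libraries numbered 2. Among 24 proximal kinases and adaptors none was called and the median log2 fold change was 0.13. In that list Themis, an adaptor of positive selection, averaged 1192 and 1396 CPM in WT and KO (FDR 0.234), and Lck, the kinase that starts TCR signalling, averaged 883 and 813 CPM (FDR 0.535).

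In the Ras and ERK pathway 2 of 31 genes rose (6.45%, beside 3.09% of all genes). Rasgrp4, an exchange factor that activates Ras, went from 14 ± 0.890 to 23.3 ± 1.51 CPM (FDR 0.0242). Ksr1, a scaffold that holds the kinases of the ERK cascade together, went from 13.8 ± 1.57 to 22.5 ± 2.56 CPM (FDR 0.0463), a call that DESeq2 did not make. Neither was called without the libraries numbered 1 or without those numbered 2. In the NF-kB pathway none of 29 genes was called, with a median of 0.14; Nfkbia, its feedback inhibitor, averaged 228 and 239 CPM, and Prkcq, the kinase PKC theta, 175 and 186 CPM.

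Genes of later T cell fates moved in both directions. Of 15 regulatory T cell genes 4 rose and none fell (26.7% called, beside 3.09% of all genes), with a median log2 fold change of 0.13. The list was split in sign, with 8 genes above 0 and 7 below. In RNA-seq its median was -0.08 over 14 genes, 7 of them above 0. Izumo1r, the folate receptor of regulatory T cells, stood at 23.2, 20.1 and 21.4 CPM in WT and 37.1, 43.2 and 40.3 CPM in KO (edgeR FDR 0.00366). Gpr83, a G protein-coupled receptor of the same cells, rose from 14.5 ± 0.975 to 27.4 ± 1.61 CPM (FDR 0.00577), and Nrp1, a coreceptor for semaphorins, rose from 131 ± 7.23 to 184 ± 9.63 CPM (FDR 0.0194). Il2ra is the remaining call. Foxp3, the factor that defines this lineage, averaged 4.8 ± 0.882 CPM in WT against 3.50 ± 0.833 CPM in KO with overlapping groups. The list had 1 call without the libraries numbered 1, and 1 without those numbered 2.

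Among 21 genes of NKT and other innate-like T cells, 1 rose and 2 fell (14.3%, beside 3.09% of all genes). Cxcr6, a chemokine receptor of NKT cells, stood at 8.65, 7.79 and 8.31 CPM in WT and 2.22, 2.68 and 2.46 CPM in KO, a 3.33-fold fall (log2 -1.74 ± 0.24, FDR 0.00321). Il2rb, the shared receptor chain for IL-2 and IL-15, fell from 30.6 ± 2.44 to 19.8 ± 1.82 CPM (FDR 0.0369). Il17rb, the receptor for IL-25, rose from 34.2 ± 1.59 to 63.0 ± 3.07 CPM (FDR 0.00118) and was also called in RNA-seq. The list had 1, 2 and 6 calls when the libraries numbered 1, 2 and 3 were left out in turn. In bulk thymocytes fewer cells of a type and less RNA per cell cannot be told apart.

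Of 35 maturation, migration and egress genes, 2 rose and 3 fell (14.3%, beside 3.09% of all genes). Itgae, the integrin chain CD103 that binds E-cadherin, stood at 67.7, 70.4 and 73.4 CPM in WT and 40.8, 39.5 and 37.1 CPM in KO (FDR 0.0012). Ms4a4b, a membrane protein of mature T cells, fell from 159 ± 16.2 to 92.7 ± 10.3 CPM (FDR 0.00531), and Ccr8, a chemokine receptor, fell from 29.4 ± 2.84 to 16.9 ± 1.70 CPM (FDR 0.0149). Klf6, a zinc finger transcription factor, rose from 56.9 ± 2.27 to 92.9 ± 3.08 CPM (FDR 0.00221). The rise of Ms4a6b (76.2 to 99.1 CPM, FDR 0.0492) was not called by DESeq2 or after edgeR's own expression filter. The list had 3, 3 and 7 calls when the libraries numbered 1, 2 and 3 were left out in turn.

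Of 28 fate transcription factors, Tox and Foxp1 rose (7.14%, beside 3.09% of all genes). Foxp1, a forkhead factor of T cell quiescence, went from 145 ± 11.1 to 200 ± 14.3 CPM (FDR 0.0369). Of 30 double-positive thymocyte genes, Tox rose and Rmnd5a fell (6.67%, beside 3.09% of all genes). Rmnd5a, a subunit of an E3 ubiquitin ligase, went from 526 ± 5.61 to 348 ± 5.19 CPM (FDR 0.00327). The recombinase gene Rag1 averaged 9943 CPM in WT and 8078 CPM in KO (FDR 0.126), Dntt, which adds bases at the joints, 3584 and 3811 CPM (FDR 0.672), and none of 17 recombination and end-joining genes was called. The Notch pathway had no call among 28 genes, Notch1 averaging 624 and 681 CPM and the protease Adam10 284 and 256 CPM, and neither did 14 gamma-delta TCR genes and regulators or 90 TCR alpha segments. Among 39 TCR beta segments Trbv17 was called (2.56%, beside 3.09% of all genes), at 64.0 and 86.4 CPM (FDR 0.0332). It was not called without the libraries numbered 1 or those numbered 2. Fate factors had 1 call without the libraries numbered 1 and 1 without those numbered 2, and double-positive genes had 2 and 1.

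The GIMAP family, small GTPases of immune cells, had 3 calls among 9 rows, all higher (33.3%, beside 3.09% of all genes), and a median log2 fold change of 0.40. Gimap8 stood at 118, 100 and 112 CPM in WT and 162, 191 and 170 CPM in KO (edgeR FDR 0.00687). Gimap6 rose from 287 ± 14.2 to 379 ± 18.0 CPM (FDR 0.0417). The third call, Gimap1os (FDR 0.0166), is an antisense row and uncertain, since the strand setting of the counting is not given. The family had 1 call without the libraries numbered 1 and none without those numbered 2.

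Cytokine receptors and their signal transducers had 4 rises and 2 falls among 33 genes (18.2%, beside 3.09% of all genes). Stat4, the transcription factor activated by IL-12, stood at 45.5, 37.6 and 41.4 CPM in WT and 81.9, 100 and 90.4 CPM in KO, a 2.19-fold rise (edgeR FDR 0.000506), and was called in RNA-seq too (FDR 0.00268). Il12rb2, a chain of the IL-12 receptor, rose from 18.5 ± 1.81 to 30.2 ± 2.73 CPM (FDR 0.0281). Ifngr1, the ligand-binding chain of the interferon gamma receptor, stood at 718, 727 and 720 CPM in WT and 1143, 1139 and 1135 CPM in KO (FDR 0.00202). Il6ra, the IL-6 receptor, fell from 22.4 ± 0.538 to 10.6 ± 0.381 CPM (FDR 0.0024). Il2ra and Il2rb, given above, are the other calls. The list had 3, 3 and 7 calls when the libraries numbered 1, 2 and 3 were left out in turn. Ltb, which encodes lymphotoxin beta, rose 2.42-fold, from 120, 106 and 96.7 CPM to 230, 266 and 284 CPM (FDR 0.000199).

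Heterotrimeric G protein and RGS genes had 4 rises and no fall among 31 (12.9%, beside 3.09% of all genes), with a median of 0.08. Gnb4, a G protein beta subunit, stood at 25.1, 25 and 27.0 CPM in WT and 90.3, 91.3 and 83.6 CPM in KO, a 3.46-fold rise (edgeR FDR 6.24e-06), and its RNA log2 fold change was 2.05 (FDR 9.18e-06). Its partner type, the gamma subunit Gng2, rose from 7.36 ± 1.23 to 15.0 ± 2.54 CPM (FDR 0.0305). Of the RGS proteins, which speed GTP hydrolysis on alpha subunits, Rgs2 rose from 42.1 ± 0.746 to 76.2 ± 1.58 CPM (FDR 0.000692) and Rgs10 from 79.7 ± 8.48 to 114 ± 12.6 CPM (FDR 0.0457). There were 3 calls in the list without the libraries numbered 1 and 2 without those numbered 2.

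Regulators of small GTPases gave 8 rises and no fall among 110 genes (7.27%, beside 3.09% of all genes), with a median of 0.02. Tbc1d4, a GTPase-activating protein for Rab proteins, stood at 21.9, 20.9 and 24.3 CPM in WT and 44.8, 47.0 and 39.8 CPM in KO (FDR 0.00202). Dennd2d, a Rab exchange factor, rose from 29.2 ± 1.76 to 49.1 ± 3.20 CPM (FDR 0.00607), and Arhgap15, which inactivates Rac, rose from 119 ± 2.25 to 165 ± 4.28 CPM (FDR 0.0156). The others were Rasgrp4, Arhgef10, Dennd3, Rapgef2 and Dock10. Such regulators had 2 calls without the libraries numbered 1 and 1 without those numbered 2.

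Ddit4, or REDD1, an inhibitor of mTORC1 induced by stress and glucocorticoids, stood at 149, 148 and 192 CPM in WT and 527, 536 and 400 CPM in KO, a 3.00-fold rise (edgeR FDR 0.000199). Rptor, which encodes the mTORC1 subunit Raptor, fell from 96.3 ± 3.55 to 71.4 ± 3.07 CPM (FDR 0.0357). These were the calls among 31 genes of the PI3K, AKT and mTOR pathway (6.45%, beside 3.09% of all genes), whose median was 0.06. The list had 1 call without the libraries numbered 1, 1 without those numbered 2 and 3 without those numbered 3. Tsc22d3, or GILZ, a glucocorticoid-induced gene, stood at 202, 195 and 272 CPM in WT and 413, 429 and 294 CPM in KO (FDR 0.0369), with KO 3 close to WT 3, and DESeq2 did not call it. Mcl1, an inhibitor of apoptosis, rose from 222 ± 12.8 to 306 ± 19.7 CPM (FDR 0.0271). It was the call among 16 BCL2 family genes (6.25%, beside 3.09% of all genes). That family had no call without the libraries numbered 1 or without those numbered 2.

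Zfp36l1 and Zfp36l2 encode proteins that bind AU-rich elements and recruit deadenylases, and both are needed for orderly thymocyte development. Zfp36l1 stood at 45.3, 41.3 and 37.3 CPM in WT and 76.4, 85.4 and 92.6 CPM in KO (2.04-fold, edgeR FDR 0.000932). Zfp36l2 stood at 41.3, 49.1 and 66.3 CPM in WT and 165, 146 and 101 CPM in KO (2.67-fold, FDR 0.00402). The groups did not overlap for either gene, as in 38.2% of all genes, and the KO libraries of Zfp36l2 were widely spread. They were the 2 calls among 43 genes of deadenylation, decapping and decay (4.65%, beside 3.09% of all genes), whose median was 0.002. The list had 1 call without the libraries numbered 1 and 1 without those numbered 2.

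Of 308 genes named Zfp, 12 rose and 1 fell, with a median log2 fold change of 0.07 and 185 above 0. Most of these genes encode DNA-binding proteins with arrays of C2H2 zinc fingers, and the coding sequences of such arrays are a known place of miR-181 seed matches. Apart from Zfp36l1 and Zfp36l2, which bind RNA, 10 of the rises were of other Zfp genes. Zfp260 stood at 57.2, 49.1 and 66.1 CPM in WT and 132, 151 and 111 CPM in KO (2.31-fold, edgeR FDR 0.0012), and its RNA log2 fold change was 0.36 (FDR 0.565). Zfp958 rose from 9.42 ± 0.535 to 22.8 ± 1.44 CPM (FDR 0.00119), and Zfp930 rose from 4.51 ± 0.0940 to 11.4 ± 0.181 CPM (FDR 0.00366). Zfp563 fell from 27.6 ± 2.18 to 17.7 ± 1.76 CPM (FDR 0.0446), a call that DESeq2 did not make. The share called, 4.22%, was near the 3.09% of all genes, and Zfp genes had 3, 4 and 24 calls when the libraries numbered 1, 2 and 3 were left out in turn. Seed matches were not counted here. Zfp genes with close relatives may share reads, and their values are uncertain to that extent.

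Among called genes whose mean log2 CPM over both genotypes reached 7, the largest fall was in Ctse, which encodes cathepsin E, an aspartic protease. It stood at 352, 317 and 320 CPM in WT and 41.0, 46.3 and 45.5 CPM in KO, a 7.46-fold fall (log2 -2.90 ± 0.10, edgeR FDR 1.37e-07). Hspa8, the constitutive Hsp70 chaperone, stood at 195, 140 and 183 CPM in WT and 9.71, 14.2 and 10.3 CPM in KO (log2 -3.85 ± 0.18, FDR 1.61e-06). Hspa8 has many near-identical processed copies in the genome, and how reads with several alignments were treated limits what this row shows: 17.7% to 18.6% of each library's reads were set aside for that reason. The other fall among 32 heat shock chaperones was Hsph1, a nucleotide exchange factor of Hsp70, from 368 ± 43.1 to 247 ± 31.0 CPM (FDR 0.0352). The share of that list called was 6.25%, beside 3.09% of all genes. Its median was -0.06, and 24 of 32 lay below 0.

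Of 63 ion channel and calcium-handling genes 3 fell and 1 rose (6.35%, beside 3.09% of all genes). Cacna1e, a voltage-gated calcium channel subunit, stood at 46.8, 55.5 and 53.6 CPM in WT and 12.8, 10.7 and 10.8 CPM in KO (log2 -2.18 ± 0.14, edgeR FDR 1.49e-05). Scn4b, a sodium channel beta subunit described in thymocytes, stood at 25.1, 21.7 and 21.2 CPM in WT and 5.08, 6.34 and 6.88 CPM in KO (FDR 0.000242). The calcium channel beta subunit Cacnb3 fell from 6.13 ± 0.331 to 2.05 ± 0.289 CPM (FDR 0.0122). The potassium channel Kcnq5 rose from 3.82 ± 0.582 to 8.0 ± 1.02 CPM (FDR 0.0446), which DESeq2 did not call. The median of the list was -0.05, and it had 3, 2 and 5 calls when the libraries numbered 1, 2 and 3 were left out in turn. Nefh, the heavy neurofilament chain, fell from 17.4 ± 0.825 to 1.55 ± 0.225 CPM (FDR 1.19e-05), while the other 4 tested neuron markers, at log2 fold changes from -0.93 to -0.34, were not called. Slc41a1, a magnesium transporter, fell from 46.1 ± 2.86 to 15.6 ± 1.16 CPM (FDR 7.72e-05).

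Adhesion genes had 5 falls and 1 rise among 63 tetraspanins, integrins and other adhesion molecules (9.52% called, beside 3.09% of all genes), with a median of -0.23. The integrin chains Itgae, Itgb3, Itgb4 and Itgav fell, as did Cdh1, or E-cadherin, the ligand of the integrin that contains Itgae. Itgb4 went from 21.1 ± 0.866 to 13.6 ± 0.682 CPM (edgeR FDR 0.042), Cdh1 from 29.2 ± 1.29 to 19.6 ± 1.10 CPM (FDR 0.0428) and Itgav from 90.6 ± 2.57 to 69.3 ± 1.59 CPM (FDR 0.0447). DESeq2 called none of these 3. Tspan13, a tetraspanin, rose from 173 ± 8.45 to 239 ± 13.2 CPM (FDR 0.0214). Adhesion genes had 1 call without the libraries numbered 1 and 2 without those numbered 2, beside 12 without those numbered 3. None of 36 matrix and basement membrane genes was called (median -0.11); fibronectin, Fn1, averaged 125 and 121 CPM, and the laminin chain Lamc1 94.2 and 81.1 CPM. Markers of dendritic cells and macrophages were lower in KO as well, as given below, and their part here was not tested.

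Other large falls came from genes of varied function. Their positions in the genome were not compared, except around the deleted locus, as given below. Kremen1, a receptor that limits Wnt signalling, stood at 123, 112 and 118 CPM in WT and 36.2, 40.3 and 37.6 CPM in KO (edgeR FDR 9.28e-06). Cd7, a surface protein of T and NK cells, fell from 32.0 ± 1.27 to 12.6 ± 0.542 CPM (FDR 0.000355), and Mcam, the adhesion molecule CD146, from 28.6 ± 1.75 to 11.4 ± 0.984 CPM (FDR 0.000692). Errfi1, an inhibitor of EGF receptor kinases, fell from 13 ± 1.42 to 5.05 ± 0.755 CPM (FDR 0.00605). Smoc1, a secreted calcium-binding protein, stood at 96.3, 85.3 and 46.9 CPM in WT and 22.2, 27.7 and 45.7 CPM in KO (FDR 0.0394). There the third libraries nearly met, and DESeq2 did not call it. The remaining large falls of the ranking were Ifi208, Emid1, Dynlt1b, Ston1, Zdhhc14, Atp11a and 5830411N06Rik, with log2 fold changes from -1.84 to -1.1. Of these, 5830411N06Rik and Dynlt1b are a predicted and a near-identical row and are uncertain, and DESeq2 did not call 5830411N06Rik. Next in that ranking of genes whose mean log2 CPM reached 7, Brwd3, a bromodomain protein, fell from 167 ± 7.87 to 87.8 ± 4.22 CPM (FDR 0.000371), and Gtf2h4, a subunit of the transcription factor TFIIH, from 227 ± 16.2 to 134 ± 8.83 CPM (FDR 0.00208). Fcgbp, Dhrs3, Abca1 and Pycard, the adaptor of inflammasomes, fell by 0.78, 0.72, 0.62 and 0.58 on the log2 scale.

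Among large rises, Pcsk1, a protease that processes prohormones, stood at 5.78, 4.37 and 6.14 CPM in WT and 28.6, 35.8 and 27.3 CPM in KO (edgeR FDR 5.07e-05). Prag1, a pseudokinase scaffold, rose from 9.75 ± 1.2 to 43.7 ± 5.04 CPM (FDR 3.12e-05), and Phlda1, a gene induced by growth factors and TCR signals, from 19.4 ± 2.69 to 53.4 ± 7.05 CPM (FDR 0.000471). Pttg1, or securin, the protein that holds separase inactive until anaphase, rose from 24.9 ± 1.95 to 108 ± 7.40 CPM (FDR 2.89e-06). It was the call among 57 mitosis genes (1.75%, beside 3.09% of all genes), of which 49 lay below 0 (median -0.11). Pttg1, Pcsk1 and Prag1 were called in RNA-seq too, with log2 fold changes of 1.65, 2.72 and 1.80. Lyrm7, an assembly factor of respiratory complex III, rose from 4.44 ± 0.363 to 14.6 ± 1.21 CPM (FDR 0.000736), with an RNA log2 fold change of 0.54 (FDR 0.368).

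The histone row Hist1h4m stood at 2.58, 1.85 and 2.45 CPM in WT and 311, 375 and 328 CPM in KO (log2 7.21 ± 0.15, edgeR FDR 2.2e-09). RNA-seq called this row higher too (log2 fold change 6.99, FDR 9.18e-06). Histone H4 genes encode the same protein in near-identical copies. Reads with several alignments were set aside, and others may be exchanged among the copies, so this row is uncertain. In the opposite direction, Hist1h2ac fell from 834 ± 61.5 to 535 ± 43.5 CPM (FDR 0.00736), Hist4h4 from 556 ± 11.3 to 388 ± 9.30 CPM (FDR 0.00848) and Hist1h3i from 1803 ± 84.4 to 1339 ± 66.8 CPM (FDR 0.0357). They make the 1 rise and 3 falls among 60 replication-dependent histones (6.67%, beside 3.09% of all genes), whose median was -0.13. With the replicate numbers left out in turn the list had 7, 4 and 13 calls.

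Predicted genes, named Gm or Rik, gave 33 rises and 12 falls among 1537 (2.93%, near the 3.09% of all genes). Gm15459 stood at 1.2, 0.392 and 0.566 CPM in WT and 77.8, 115 and 102 CPM in KO (edgeR FDR 2.01e-07). Gm8141, Gm9436, Gm37632, Gm4759, Gm37534, Gm14085, Gm5913, Gm26930, D130019J16Rik and A430106G13Rik complete the predicted rows among the 20 largest rises, beside Gm4258. Gm5913 was not called by DESeq2. Gm24313 (6.4 to 0.234 CPM), Gm6494 (112 reads in WT, 1 in KO; not called by DESeq2) and A930003A15Rik (22 to 10.1 CPM) were among the falls. The list had 20, 27 and 92 calls when the libraries numbered 1, 2 and 3 were left out in turn. In 3 rows the KO libraries had no read at all: 9930111J21Rik2 was at least 40.5-fold lower, the olfactory receptor row Olfr56 at least 33.1-fold lower and Gm12222 at least 32.9-fold lower, against a floor of 3 reads over the 3 KO libraries. Predicted rows may overlap or copy other genes, and their values are uncertain.

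Around the deleted locus, in the gene order of the RefSeq annotation of GRCm38.p6, 4 of the 40 nearest tested genes (20 on each side) rose and 2 fell, which is 15% beside 3.09% of all genes. Gm4258, the nearest row on one side and a predicted noncoding gene, stood at 121, 145 and 124 CPM in WT and 521, 436 and 505 CPM in KO (edgeR FDR 7.69e-06). Next to it, Gm19705 fell from 9.80 ± 0.642 to 4.55 ± 0.373 CPM (FDR 0.0192). Farther along, Lad1, a basement membrane protein, rose from 1.95 ± 0.269 to 12.6 ± 1.2 CPM (FDR 0.000142), Rnpep, an aminopeptidase, from 61.2 ± 4.40 to 96.1 ± 6.68 CPM (FDR 0.00709), and Csrp1, a cytoskeletal LIM protein, fell from 267 ± 16.7 to 167 ± 10.9 CPM (FDR 0.00327). Rgs2, given above, lies 13 tested genes away on the other side. Ptprc, which encodes CD45 and is the nearest gene on that side, averaged 3879 CPM in WT and 4358 CPM in KO (FDR 0.389).

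Protein synthesis and degradation machinery had few or no calls, beside 3.09% called of all genes. None was made among 77 cytosolic ribosomal protein genes (median 0.09), 68 translation initiation and elongation factors (median -0.05), 34 aminoacyl-tRNA synthetases (median -0.05), 48 proteasome genes (median -0.06), 15 chaperonin and prefoldin genes (median -0.05) or 26 endoplasmic reticulum chaperones (median -0.09). Rpl8, a ribosomal protein, averaged 520 and 533 CPM in WT and KO, Eef2, which moves the ribosome along, 1196 and 1256 CPM, and the initiation factor Eif3a 866 and 743 CPM. The proteasome subunits Psmb8 and Psmc3 averaged 408 and 494 CPM and 427 and 425 CPM, and the chaperones Hsp90b1 and Hspa5 1199 and 1145 CPM and 994 and 899 CPM. Ribosome biogenesis, with no call among 39 genes, lay below 0 for 37 of them, with a median of -0.16; Ncl, or nucleolin, averaged 1320 CPM in WT and 1299 CPM in KO. The microRNA machinery had no call among 19 genes. Of 74 mitochondrial ribosomal protein genes Mrps24 fell (1.35% called), from 19.9 ± 1.91 to 12.6 ± 1.47 CPM (edgeR FDR 0.0447), without a DESeq2 call. It was not called without the libraries numbered 1 or without those numbered 2. Among 245 ubiquitin ligases and deubiquitinases 4 rose and 2 fell (2.45%). Among them Ube2t, Fbxo33 and Otud1 rose by log2 fold changes of 0.53 to 0.71, and Rnf213 and Hectd4 fell by 0.38 and 0.37 on the log2 scale. Otud1 was not called after edgeR's expression filter, and the list had no call without the libraries numbered 1 or without those numbered 2. Of 198 solute carriers, Slc25a12, a mitochondrial aspartate carrier, rose (164 to 214 CPM, FDR 0.0417) and Slc41a1 and Slc35b1 (50 to 35.7 CPM, FDR 0.0422, not called by DESeq2) fell. The share of solute carriers called was 1.52%, and they had 1 call without the libraries numbered 1 and 1 without those numbered 2.

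Replication and energy metabolism lists had at most 1 call each, and at the 3.09% called of all genes lists this short would hold few. No call was made among 55 DNA replication genes (median -0.05), 35 DNA damage and p53 genes (0.04), 30 tricarboxylic acid cycle genes (-0.003) or 21 rows of the mitochondrial genome (-0.03). Glycolysis genes had a median of 0.22, with 21 of 27 above 0. Eno1, or enolase, was called (118 ± 3.75 to 160 ± 4.8 CPM, edgeR FDR 0.0237), although Eno1 has near-identical copies and is uncertain. The share called in that list, 3.70%, was near the 3.09% of all genes. Uqcrq, a subunit of respiratory complex III, was the call among 87 respiratory chain genes (1.15%). It went from 90.7 ± 6.32 to 135 ± 10.3 CPM (FDR 0.0119), beside an RNA log2 fold change of -0.01. Neither the glycolysis nor the respiratory chain list had a call without the libraries numbered 1 or without those numbered 2.

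Among 39 cholesterol and fatty acid genes, Acsl4, which activates polyunsaturated fatty acids, rose from 104 ± 1.5 to 162 ± 3.34 CPM (edgeR FDR 0.00237). Elovl5, an elongase of such fatty acids, rose from 147 ± 13.6 to 225 ± 19.5 CPM (FDR 0.0124). Dhcr7, the last enzyme of cholesterol synthesis, fell from 150 ± 16.8 to 101 ± 11.4 CPM (FDR 0.0266) and was called in RNA-seq too (FDR 0.0156). The share called was 7.69%, beside 3.09% of all genes. The list had 1, 1 and 4 calls when the libraries numbered 1, 2 and 3 were left out in turn. Samhd1, which destroys deoxynucleotides, fell from 128 ± 8.95 to 87.8 ± 6.67 CPM (FDR 0.0179) as the call among 39 nucleotide synthesis genes (2.56%). It was not called without the libraries numbered 1 or without those numbered 2.

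Among 47 interferon-stimulated genes 34 lay below 0 and the median log2 fold change was -0.18, with 1 rise and 2 falls (6.38%, beside 3.09% of all genes). Bst2, or tetherin, fell from 107 ± 9.13 to 76.0 ± 7.19 CPM (edgeR FDR 0.0424) and Oas1a, an RNA-sensing synthetase, from 5.74 ± 0.707 to 2.43 ± 0.448 CPM (FDR 0.0463). Gbp9, a guanylate-binding protein, rose from 34.1 ± 2.11 to 48.2 ± 3.17 CPM (FDR 0.0428). DESeq2 called neither Oas1a nor Gbp9, and the list had 0, 2 and 8 calls when the libraries numbered 1, 2 and 3 were left out in turn. No call was made among 24 genes of MHC class I presentation, where B2m averaged 1741 CPM in WT and 1590 CPM in KO and Pdia3 959 and 918 CPM.

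**Figure D4:**
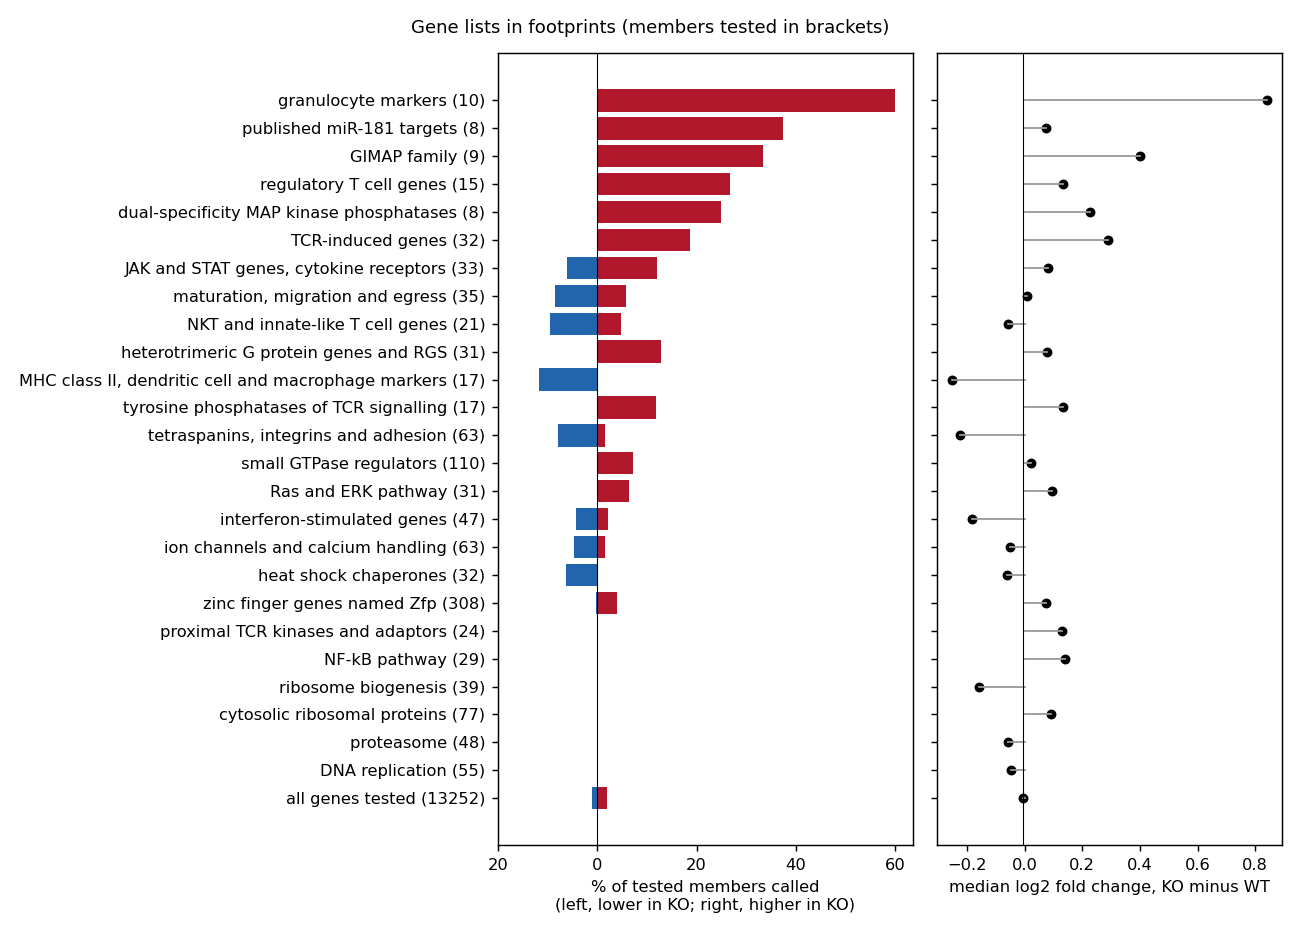
Left, the percentage of tested members called lower (blue) and higher (red) in KO in 25 gene lists and in all genes; right, the median log2 fold change of each list. Granulocyte markers, published targets and the GIMAP family have the highest shares of rises beside 1.97% of all genes, and the proximal TCR kinases, NF-kB, ribosome biogenesis, ribosomal protein, proteasome and replication lists have no call.

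Markers of other cells were checked against those of thymocytes. The 15 thymocyte markers summed to 30128 to 31636 CPM in WT and 29804 to 31337 CPM in KO. This was the largest sum of any marker list in every library, so the label held in both genotypes. Members moved both ways within that sum, 9 above 0 and 6 below. Rag1 averaged 9943 CPM in WT and 8078 CPM in KO, and Cd4 1951 and 2906 CPM. Granulocyte markers stood higher in KO in all 10 members, with 6 called (60%, beside 3.09% of all genes) and a median log2 fold change of 0.84. S100a8, a calcium-binding protein of neutrophils, stood at 58.6, 59.8 and 88.0 CPM in WT and 155, 154 and 96.8 CPM in KO (edgeR FDR 0.0271). Camp, a granule peptide, stood at 14.1, 11.6 and 15.9 CPM in WT and 26.1, 31.0 and 22.4 CPM in KO (FDR 0.0161), and Ltf, or lactoferrin, rose from 43.7 ± 8.51 to 78.6 ± 16.1 CPM (FDR 0.0257). Elane, Ngp and Mpo, also granule proteins, rose with FDRs of 0.0417, 0.0447 and 0.0428. In the third pair Ngp lay closest of the called markers, at 64.2 CPM in WT 3 and 64.6 CPM in KO 3. Elane stood at 2.93 and 5.41 CPM there and Mpo at 11.4 and 18.7 CPM. Of the uncalled markers, S100a9 (102 and 95.1 CPM), Retnlg (6.99 and 6.64 CPM) and Csf3r (1.98 and 1.72 CPM) were lower in KO 3 than in WT 3. The remaining marker, Ly6g, was higher (0.85 and 2.95 CPM). No granulocyte marker was called without the libraries numbered 1 or without those numbered 2, while 8 were called without those numbered 3. DESeq2 did not call S100a8 or Elane.

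Markers of MHC class II cells, dendritic cells and macrophages summed to 1891 to 2297 CPM in WT and 1467 to 1800 CPM in KO. Of 17 members 15 lay below 0, the median was -0.25, and Mpeg1, a pore-forming protein of macrophages, and Siglech, a receptor of plasmacytoid dendritic cells, fell (122 ± 13.1 to 83.6 ± 9.74 CPM and 10.5 ± 1.53 to 4.85 ± 1.21 CPM, both with an edgeR FDR of 0.0417). The share called was 11.8%, beside 3.09% of all genes. Neither call was made in the fit without the libraries numbered 1 or in that without those numbered 2. B cell markers (428 to 581 CPM in WT, 449 to 617 CPM in KO), thymic epithelial markers (671 to 859 and 675 to 855 CPM) and erythroid markers (40.5 to 75.6 and 34.9 to 74.0 CPM) overlapped between genotypes. Among them the B cell receptor subunit Cd79b was called (7.69% of the B cell markers tested), at 34.4 and 47.6 CPM (FDR 0.0428), though not by DESeq2. The call was also lost without the libraries numbered 1 and without those numbered 2. The mesenchyme list was made up almost wholly of Thy1 (2712 and 2359 CPM), which thymocytes express. Endothelial markers summed to 163 to 170 CPM in WT and 186 to 192 CPM in KO, mostly from Pecam1 (137 and 150 CPM, not called). Across the 7 tested, Cdh5, Esam and Plvap lay below 0 and 4 lay above, while Tek, Tie1, Emcn, Cldn5 and Robo4 were not tested. Of the 7, Eng, or endoglin, rose from 16.4 ± 0.863 to 27.7 ± 1.42 CPM (FDR 0.0142), a share called of 14.3%. That call was not made without the libraries numbered 1 or without those numbered 2. NK cell markers (137 to 179 and 158 to 208 CPM) and adipocyte markers (28.1 to 41.2 and 22.4 to 31.5 CPM) overlapped too, with Klra8 and Lep at 0 reads. Gzma made up most of the NK cell sum (146 and 173 CPM). The other 3 tested NK cell markers and all 5 tested adipocyte markers lay below 0, and none was called. How much any of these cells adds to the changes in the lists above was not tested.

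**Figure D5:**
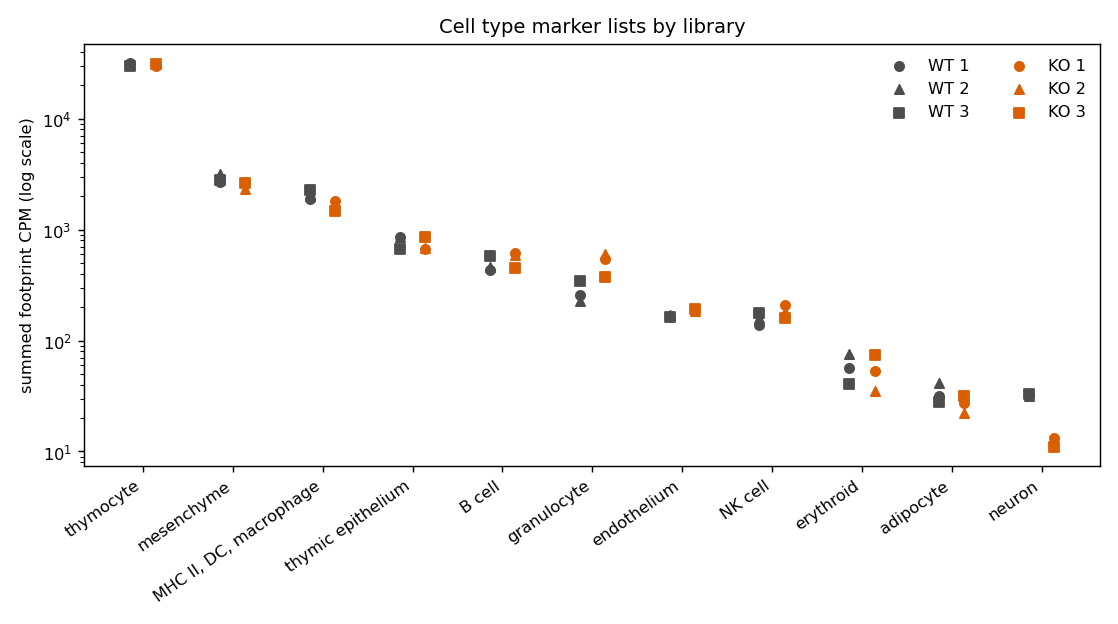
Summed footprint CPM (log scale) of 11 cell type marker lists in each WT (grey) and KO (orange) library, with symbols for the library number. Thymocyte markers lie between 29804 and 31636 CPM in every library, granulocyte markers run from 229 to 347 CPM in WT and from 376 to 599 CPM in KO, and the dendritic cell and macrophage list runs the other way.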

How the data were processed

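Counts of reads per gene were deposited by the authors for 6 footprint and 6 RNA-seq libraries in 1 table per assay named as adjusted. What the adjustment was, and which build, annotation and strandedness applied, is not stated in the labels or headers. The submitters' processing notes name FastQC, Bowtie2 2.5.1, STAR 2.7.10a, HTSeq 2.0.3 and DESeq2 1.40.2 without their roles. Libraries were made with the Illumina TruSeq Ribo Profile kit, per the labels' protocols. The 5 rows that name no gene (26.9% to 27.7% of footprint reads, left out of library sizes) hold reads without a feature, ambiguous reads and reads with several alignments. Symbols were matched by versioned ID for 54587 of 55335 gene rows and by unversioned ID for 567, which left 181 without one. A further 12 per-library columns in the authors' own comparison tables were not used.

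Counts were scaled by trimmed mean of M-values and tested with edgeR 4.0.16 in R 4.3.3 (quasi-likelihood, Benjamini-Hochberg adjustment over all tested genes, FDR 0.05), with the replicate number as a block; the fit was first tested on simulated data. The block rests on the data, since same-numbered footprint libraries had deviations correlated at -0.99, not on a shared litter or day in the labels. Alternatives were DESeq2 1.42.0, no block, other scaling, other filters and left-out libraries. Members and the 72 gene lists were chosen with earlier results of these data known, so lists are described by counts and medians with no set test. Named genes are the Mir181 rows and published targets, the 20 largest called rises and falls whose genotypes do not overlap and whose mean log2 CPM reaches 3, the 10 largest of each where it reaches 7, and up to 4 called members of a list in each direction (all where 5 or fewer were called), or the most abundant members of a list without calls. Uncalled genes set beside a list (such as Egr3, Cd5, Jun, Irf8, Foxp3, Cd8a, Ptpn6), the neighbours of the locus, and Arhgef10, Dennd3, Rapgef2, Dock10, Egr1, Itgb3, Ngp and Mpo were named after their values were seen. A few further genes are not reported here. Values are means ± SD (n = 3) in CPM, or log2 fold changes ± SE.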

Additional observations from a re-analysis of the deposited data

How the results depend on the processing

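The replicate block decided the number of calls: without it, 2317 footprint genes were called (1245 higher, 1072 lower, 274 beyond 2-fold) and 909 RNA-seq genes, beside 410, 261, 149, 113 and 104 with it. The pairing is a property of the deposited values, in which same-numbered libraries mirror each other. Testing every gene row with a read gave 885 calls (486 higher, 399 lower, 232 beyond 2-fold), and an FDR of 0.1 gave 653 (415 higher, 238 lower) and 194 in RNA-seq. Leaving out a replicate number, or a single library without the block, gave 135 to 1541 calls, 74 to 885 higher, 52 to 671 lower and 71 to 271 beyond 2-fold, and 56 to 247 in RNA-seq; the cause was not tested. Size factors by relative log expression (435), edgeR's expression filter (408), a mean count of at least 50 (407) and DESeq2 with the block (355) stayed within 1.5 times. DESeq2 shared 324 of the 410 calls, and 318 were shared by that fit, the unblocked fit, relative log expression and both looser filters.

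Of 144 genes named by the rule, 135 were called, and none of those changed direction in any alternative. Without the libraries numbered 1 the FDR of 70 named genes passed out of the threshold, without those numbered 2 that of 69, and without those numbered 3 that of 8. Directions turned with left-out libraries for 5 uncalled genes, whose log2 fold changes then ran from -0.042 to 0.13 for Mir181a-2, -1.12 to 0.040 for Mir181b-2, -0.037 to 0.40 for Dusp5, -0.19 to 0.077 for Ptpn11 and -0.28 to 0.22 for Bcl2. Depth limits the low rows: KO 3 had 4069968 reads in genes, so a row with a mean count near 10 had only a few reads there.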

Other observations

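The following genes were named after their values were seen. Sypl, a synaptophysin-like vesicle protein, stood at 54.6, 60.5 and 58.2 CPM in WT and 130, 118 and 121 CPM in KO (edgeR FDR 0.000142). Igf2bp3, an RNA-binding protein of fetal tissues, rose from 34.3 ± 1.78 to 63.5 ± 3.31 CPM (FDR 0.00119), and Mbnl1, a splicing regulator, from 359 ± 8.10 to 476 ± 10.9 CPM (FDR 0.0299). Hsd11b1, which regenerates active glucocorticoid, rose from 49.0 ± 6.07 to 106 ± 12.4 CPM (FDR 0.00101). Of genes that handle cholesterol, Lipa, the lysosomal acid lipase, rose from 422 ± 10.1 to 618 ± 15.4 CPM (FDR 0.00633). Apoe, which carries lipids between cells, fell from 390 ± 23.6 to 267 ± 18.2 CPM (FDR 0.013).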
